A study of Mus musculus with 8 samples.

Results

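Kinesins are the subject here: the motor proteins that walk along microtubules, followed at the level of open chromatin in and around their genes. The group holds 40 mouse kinesin genes, listed by family membership under a rule that uses no measured value. A consensus region (a place where at least 1 cell line had an accessibility peak) belonged to a kinesin when that gene's body was the nearest protein-coding gene body, with the region inside it or at most 50 kb away. By that rule 145 of the 57417 regions belonged to 38 kinesin genes. Kif1a and Kif2b, a neuronal vesicle motor and a spindle kinesin, had no region and are not followed further. The genes were sorted by textbook role into 13 mitotic kinesins (12 measured, 22 regions), 15 transport kinesins (14 measured, 74 regions) and 12 others, which regulate microtubule ends or work in cilia and signalling (12 measured, 49 regions).

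ATAC-seq, a method that marks open DNA with a cutting enzyme, was applied to the mouse breast cancer line PB3, labelled Er-/Pr-/Her2-. The groups were PB3-Parental, which was untreated, and 3 resistant derivatives: PB3-ERI-R (the drug is spelled Erubilin in its titles and Eribulin in the treatment protocol), PB3-PAC-R (Paclitaxel) and PB3-VIN-R (Vinorelbine). Resistant clones were raised with 300, 500 and 800 nM of each drug. Each group had 2 libraries, and since no label ties them to separate cultures, every p-value here reflects spread among libraries that could be purely technical.

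All 3 drugs act on the microtubule, the track on which kinesins move. Paclitaxel stabilizes microtubules, whereas vinorelbine and eribulin block their growth. Mitotic kinesins build the spindle, align chromosomes and drive the cut between daughter cells. Transport kinesins carry vesicles, mitochondria and ciliary cargo, and several other kinesins shorten microtubules or work in the primary cilium. Transcription of mitotic genes is commonly timed by a promoter element called CHR (cell cycle genes homology region), often with CCAAT boxes close by. Accessibility near a gene is not its expression, and no RNA or protein was measured in the files used here.

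Libraries held 10521964 to 24052237 counts over the regions, and levels are given as CPM, that is, relative to the scaled size of each library. Genome-wide, PB3-ERI-R was the line that differed: 73.0% of all regions and 56.6% of all 15580 gene loci (the summed counts of a gene's regions) differed from PB3-Parental at an adjusted p under 0.05 in edgeR's quasi-likelihood test. In PB3-PAC-R and PB3-VIN-R fewer than 1 in 100 did so. Loci of mammary epithelial markers rose in PB3-ERI-R (6 of 8). Their summed level went from 373.6 to 506.3 CPM in PB3-Parental to 783.5 to 922.2 CPM. Krt8 and Krt18 were not called (log2 differences of 0.18 and -0.24). Of 6 mesenchymal marker loci 5 fell, while Twist1 rose (log2 difference of 0.61, adjusted p = 0.00087). Of 10 blood and stromal markers 7 had a measured locus, none of them at 0, and their summed level was lower in PB3-ERI-R, going from a summed 173.9 to 195.9 CPM to 87.4 to 89.0 CPM (5 of 7 fell). Of the receptors in the label, Esr1 and Erbb2 had accessible loci in every library and Pgr had none. What part these shifts have in the kinesin values was not tested.

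Promoter sequence differed between the classes. RefSeq promoter windows of GRCm38.p6, running from 250 bases before to 50 bases after the start site, were at hand for 32 of the 40 genes. CHR (TTTGAA, searched on both strands) was found in 10 of 12 mitotic windows, 0 of 10 transport windows and 2 of 10 other windows, and in 18.1% of the windows of all 27025 genes in the table. The mitotic windows without it were those of Kif18a and Kif2b, and the other kinesins with it were Kif26b and Kif27. In 8 mitotic genes the nearest CHR match began within 50 bases of the start site. The CCAAT box (CCAAT, both strands) was in 8 mitotic, 3 transport and 4 other windows, against 37.9% of all windows. The GC box (GGGCGG, both strands), a letter string of housekeeping promoters, went the other way, with 6 mitotic, 8 transport and 7 other windows against 35.9%. AP-1 (TGANTCA) and the E2F core (TTTCCCGC) were in none of the kinesin windows, against 7.93% and 1.11% of all windows. Matches of different strings may share bases at their ends, and a match is only a description of the letters. Median GC content was 60.2% in mitotic, 68.2% in transport and 65.7% in other windows, against 52.7% of all windows.

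Windows of 9 mitotic genes had their start site inside a consensus region, and 8 of those 9 held CHR. Whether these letters bear on accessibility was not tested. Set out here are 5 mitotic starts with CHR (Kif11, Kif23, Kifc1, Kif20b and Kif4) and, without it, Kif18a, which gained accessibility. Kif1b is added as the transport start that lost it, and Kif26a and Kif26b as starts that gained it. Each runs 5′ to 3′ along the gene from 150 bases before to 30 bases after the start site, from RefSeq GRCm38.p6, with CHR (TTTGAA or its reverse TTCAAA) and the CCAAT box (CCAAT or its reverse ATTGG) in capitals. On the plus strand lie Kif11 at chr19:37376232-37376411, Kif20b at chr19:34922208-34922387, Kif4 at chrX:100625915-100626094, Kif18a at chr2:109280588-109280767, Kif26a at chr12:112146058-112146237, Kif26b at chr1:178528975-178529154. On the minus strand lie Kif23 at chr9:61946770-61946949, Kifc1 at chr17:33890604-33890783, Kif1b at chr4:149307704-149307883.
Kif11: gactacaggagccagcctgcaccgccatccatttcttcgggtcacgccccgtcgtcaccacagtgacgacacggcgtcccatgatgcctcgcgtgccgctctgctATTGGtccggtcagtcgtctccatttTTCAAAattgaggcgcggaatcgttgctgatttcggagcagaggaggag
Kif23: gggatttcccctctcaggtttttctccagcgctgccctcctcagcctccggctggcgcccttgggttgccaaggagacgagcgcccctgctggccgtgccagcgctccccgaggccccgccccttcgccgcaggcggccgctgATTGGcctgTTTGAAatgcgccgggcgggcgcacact
Kifc1: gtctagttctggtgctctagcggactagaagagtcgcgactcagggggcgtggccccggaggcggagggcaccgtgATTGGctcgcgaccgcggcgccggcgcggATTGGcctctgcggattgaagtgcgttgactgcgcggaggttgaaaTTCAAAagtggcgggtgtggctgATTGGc
Kif20b: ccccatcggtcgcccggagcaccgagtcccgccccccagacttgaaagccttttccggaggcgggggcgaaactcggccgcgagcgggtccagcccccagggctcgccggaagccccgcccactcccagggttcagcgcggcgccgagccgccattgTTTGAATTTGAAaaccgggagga
Kif4: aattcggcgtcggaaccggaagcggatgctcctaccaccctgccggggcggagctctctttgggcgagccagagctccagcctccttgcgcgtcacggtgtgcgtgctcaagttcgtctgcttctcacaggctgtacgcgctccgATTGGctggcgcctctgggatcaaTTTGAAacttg
Kif18a: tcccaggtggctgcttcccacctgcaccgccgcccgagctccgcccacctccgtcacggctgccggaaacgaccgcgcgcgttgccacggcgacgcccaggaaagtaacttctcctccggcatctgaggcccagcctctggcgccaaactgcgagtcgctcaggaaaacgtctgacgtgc
Kif1b: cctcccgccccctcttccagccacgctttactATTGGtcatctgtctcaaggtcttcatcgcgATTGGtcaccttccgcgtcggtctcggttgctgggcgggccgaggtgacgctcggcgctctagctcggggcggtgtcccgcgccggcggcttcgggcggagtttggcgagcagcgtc
Kif26a: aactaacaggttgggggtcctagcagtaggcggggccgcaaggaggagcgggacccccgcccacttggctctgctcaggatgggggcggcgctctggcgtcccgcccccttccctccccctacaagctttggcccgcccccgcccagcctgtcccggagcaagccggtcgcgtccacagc
Kif26b: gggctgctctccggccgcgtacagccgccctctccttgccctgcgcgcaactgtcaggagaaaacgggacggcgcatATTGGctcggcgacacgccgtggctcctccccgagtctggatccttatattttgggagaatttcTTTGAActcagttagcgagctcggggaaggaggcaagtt

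Kif11, Kif23, Kifc1, Kif20b and Kif4 carried CHR within the last bases before or the first bases after the start. In Kif20b the element stood as an uninterrupted pair. Kif1b had 2 CCAAT boxes and no CHR, Kif26a had neither, and Kif26b had both. All 13 regions within 1 kb of a mitotic gene end, and all 12 of the transport genes, were peaks in every line, whereas this held for 6 of 11 such regions of the other kinesins and for 70.1% of all such regions. Farther from gene ends, 28 of 109 kinesin regions (25.7%) were peaks in every line, against 22.2% of all regions so placed.

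Counted over whole loci, the kinesins divided in PB3-ERI-R about as the genome did. Of 38 kinesin loci, 12 rose and 9 fell against PB3-Parental, 55.3% in all, beside 56.6% of all loci (27.0% higher, 29.6% lower). The median log2 difference was 0.03, against -0.01 over all loci. The classes did not divide evenly. Among 12 mitotic loci 4 rose and 1 fell (median 0.11), among 14 transport loci 2 rose and 6 fell (median -0.17), and among 12 other loci 6 rose and 2 fell (median 0.30). Without PB3-Parental library 2 only 7 kinesin loci rose, 1 of them mitotic, and without PB3-ERI-R library 1 the mitotic loci that rose numbered 2. No test of one class against another was made. The plot of log2 differences by locus shows the 3 comparisons for each gene.

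**Figure D1:**
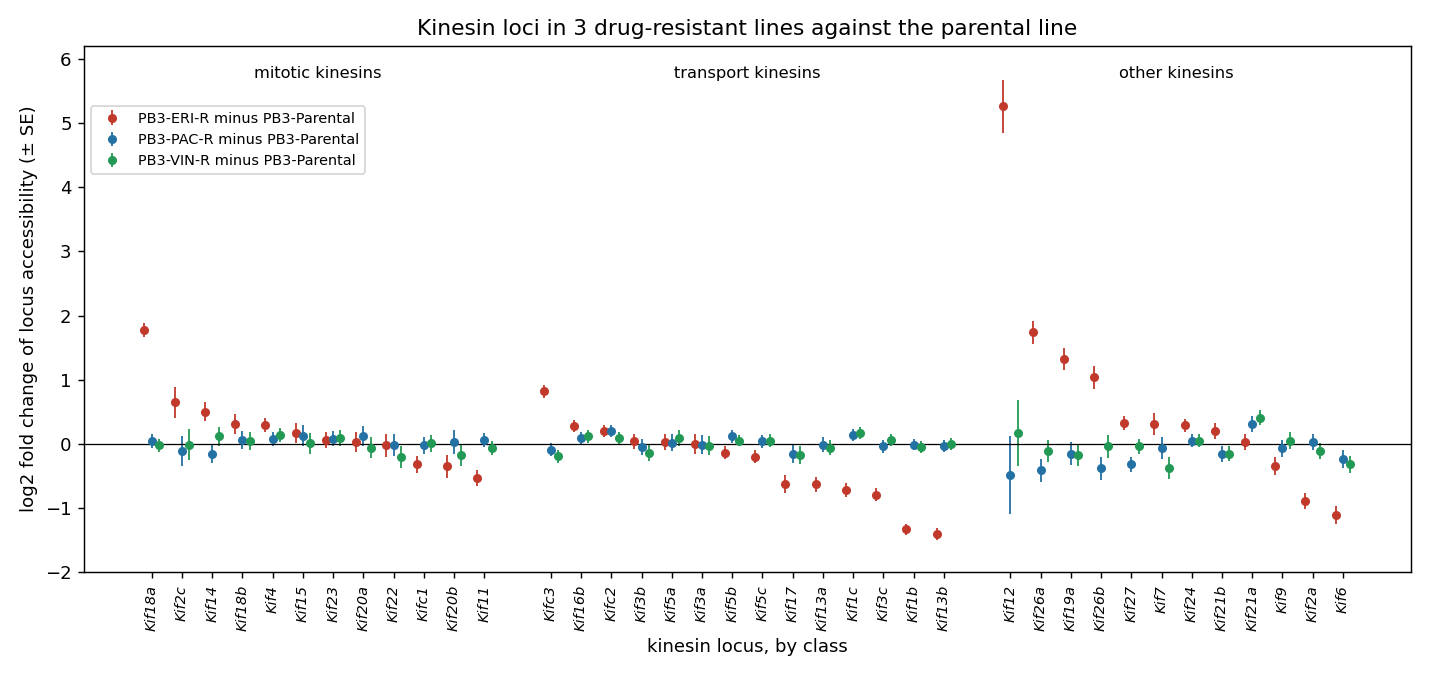
Log2 difference of locus accessibility against PB3-Parental (y axis, ± SE) for the 38 measured kinesin loci (x axis, grouped by class and ordered by PB3-ERI-R), in PB3-ERI-R (red), PB3-PAC-R (blue) and PB3-VIN-R (green), from 2 libraries a line. Red points spread from -1.40 (Kif13b) to 5.26 (Kif12), whereas blue and green points stay between -0.48 and 0.41.

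Loci and regions were scaled separately, which sets where zero lies. Among 5687 loci made of 1 region, the region's log2 difference in PB3-ERI-R exceeded the locus value by a median of 0.29, and by 0.01 in the other 2 lines. With the region table's scaling factors, the median of all loci moved from -0.01 to 0.29, the share of higher among all called loci went from 47.7% to 68.7%, and the kinesin loci became 17 higher and 7 lower. With library totals alone the median of all regions moved from 0.07 to -0.29 (37.1% of calls higher, 48.5% in the main fit), and the kinesin loci became 8 higher and 12 lower. With offsets that take out the median difference of all regions in each 5 Mb window of the genome, the median of all loci was -0.12 and the kinesin loci were 6 higher and 8 lower. With those offsets the class medians were 0.21 for other, 0.15 for mitotic and -0.11 for transport loci. Each locus value is best read against the median of all loci, and each region value against that of all regions.

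Kif18a, which tracks to the plus ends of spindle microtubules and calms chromosome movement, had the largest gain of the mitotic class. Its locus (chr2:109280738-109341749) measured 41.7 and 39.4 CPM in PB3-Parental and 137.3 and 139.6 CPM in PB3-ERI-R. It stood at 41.0 and 43.1 CPM in PB3-PAC-R and at 37.2 and 42.9 CPM in PB3-VIN-R. Both PB3-ERI-R libraries lay far above the other 6, a difference of 1.77 ± 0.11 (log2 ± SE, adjusted p = 3.78e-07), while the median difference of all regions in its 5 Mb window (the window median below) was -0.81.

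Most of that gain came from a region that was all but closed elsewhere. At chr2:109349713-109350500, 7.96 kb beyond the gene body, the counts were 2 and 7 in PB3-Parental, 739 and 567 in PB3-ERI-R, 3 and 3 in PB3-PAC-R and 9 and 12 in PB3-VIN-R. Only in PB3-ERI-R was a peak called there, and the log2 difference was 7.81 ± 0.37 (adjusted p = 1.43e-09). The start region (chr2:109280506-109281374), which reaches the gene Mettl15 as well and counts for both, also rose, by 1.27 ± 0.16 (adjusted p = 3.55e-06).

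Kif2c, the depolymerase that releases wrongly attached chromosomes, measured 83.1 and 70.3 CPM in PB3-Parental and 138.2 and 102.8 CPM in PB3-ERI-R. In PB3-PAC-R it was 78.7 and 63.9 CPM, and in PB3-VIN-R 97.2 and 55.5 CPM. The PB3-ERI-R libraries were the highest, but the PB3-VIN-R pair spread widely, and the difference of 0.65 ± 0.24 (adjusted p = 0.0383) was lost without PB3-Parental library 2 (0.54, adjusted p = 0.159) or PB3-ERI-R library 1 (0.44, adjusted p = 0.223). It was also lost with window offsets (0.39, adjusted p = 0.236), with gene-end regions (0.07, adjusted p = 0.771) and with gene-body regions (0.17, adjusted p = 0.394). The gain lay at chr4:117189906-117190881, 7.28 kb outside the gene (1.15 ± 0.25, adjusted p = 0.00087). The start region lay at the edge of the gene body, its middle 3.68 kb from the start site of the Kif2c promoter window, and no region covered that site. This start region measured 0.44 ± 0.17 (adjusted p = 0.0359), a call lost without any 1 of 5 libraries (either PB3-Parental or PB3-PAC-R library, or PB3-ERI-R library 1) and at 0.08 with library totals alone.

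Kif14, which acts in the final cut between daughter cells, measured 58.1 and 45.0 CPM in PB3-Parental and 64.0 and 82.4 CPM in PB3-ERI-R. PB3-PAC-R gave 45.4 and 47.9 CPM and PB3-VIN-R 54.1 and 58.2 CPM, all below both PB3-ERI-R libraries. The difference was 0.50 ± 0.15 (adjusted p = 0.0159) and was lost without PB3-Parental library 2 (0.33, adjusted p = 0.127) or PB3-ERI-R library 2 (0.34, adjusted p = 0.125), and with window offsets (0.28, adjusted p = 0.0723). Its start region, at the edge of the gene body, rose by 0.96 ± 0.17, and a region inside the gene fell (-2.1 ± 0.59, adjusted p = 0.00523). The locus thus holds changes in both directions. The inner region held 102 and 33 counts in PB3-Parental and 4 and 15 in PB3-ERI-R, and was a peak in PB3-VIN-R alone. The middle of that start region lay 1.46 kb from the start site of the Kif14 promoter window, and no region covered that site.

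Kif4, a chromosome-bound kinesin of the spindle midzone, rose at its start and fell inside the gene. Its start region (chrX:100625758-100626210, reaching Pdzd11 too) went from 24.02 and 18.9 CPM in PB3-Parental to 51.6 and 45.3 CPM in PB3-ERI-R (1.17 ± 0.18, adjusted p = 3.31e-05). At chrX:100716238-100716619, 90.4 kb into the gene, 6.08 and 8.52 CPM in PB3-Parental stood against 0.650 and 1.33 CPM (-2.90 ± 0.37). The summed locus value of 0.30 ± 0.11 (adjusted p = 0.0416) is thus a balance, and it turned to -1.01 (adjusted p = 0.00238) without the region shared with Pdzd11 and to -0.56 with offsets for the 5 Mb window (median 0.87). The call was also lost without either PB3-Parental or PB3-PAC-R library or PB3-ERI-R library 1 (adjusted p from 0.0673 to 0.227), with library totals (adjusted p = 0.119) and in DESeq2 (adjusted p = 0.0544). These 2 Kif4 regions and the region inside Kif14 were picked after their values were seen, unlike the other named regions of Kif18a, Kif2c and Kif14.

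Kif11 (Eg5), the motor that pushes spindle poles apart, was the only mitotic locus that fell in this fit. It measured 57.2 and 63.6 CPM in PB3-Parental, 38.1 and 45.6 CPM in PB3-ERI-R, 63.2 and 62.6 CPM in PB3-PAC-R and 56.6 and 59.3 CPM in PB3-VIN-R. The PB3-ERI-R libraries were the lowest of the 8 (-0.53 ± 0.12, adjusted p = 0.00275). The window's median was -0.73, and with offsets for it the locus value was 0.20 (adjusted p = 0.212), and with the region table's scaling -0.24 (adjusted p = 0.164). At the start region, 39.9 and 43.5 CPM in PB3-Parental overlapped 35.8 and 44.4 CPM in PB3-ERI-R (-0.06 ± 0.18, adjusted p = 0.776). Its direction turned on the scaling: it was called higher with offsets (0.68, adjusted p = 0.00444) and lower with library totals alone (-0.41, adjusted p = 0.045). The region called lower in the main fit was chr19:37391888-37392307, 15.7 kb into the gene, which went from 6.80 and 9.78 CPM to 2.79 and 2.33 CPM (-1.69 ± 0.30, adjusted p = 0.000144).

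Kifc1, a minus-end motor that gathers extra centrosomes, measured 53.1 and 57.2 CPM in PB3-Parental and 38.7 and 49.7 CPM in PB3-ERI-R. PB3-PAC-R and PB3-VIN-R lay between 52.7 and 58.0 CPM, above both PB3-ERI-R libraries, but the difference of -0.32 ± 0.13 missed the threshold (adjusted p = 0.0588). It passed with library totals (-0.40, adjusted p = 0.0444) and with gene-end regions (-0.40, adjusted p = 0.0196), a setting that sums the same counts under another scaling. Its only region, at the start, was not called on the region scale (-0.03 ± 0.16, adjusted p = 0.87). There 47.7 and 52.7 CPM in PB3-Parental overlapped 43.5 and 54.9 CPM in PB3-ERI-R. With library totals alone that region measured -0.38 (adjusted p = 0.0441). Kif15, Kif18b, Kif20a, Kif20b, Kif22 and Kif23, motors of the spindle, the chromosome arms and the midzone, were not called either, with log2 differences from -0.35 (Kif20b) to 0.31 (Kif18b). Of the 13 regions near mitotic gene ends, 6 rose and none fell (median 0.37, against 0.36 for all 12307 regions near a gene end).

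Kif23, a subunit of the centralspindlin complex at the midzone, was not called as a locus. It measured 75.4 and 65.0 CPM in PB3-Parental, 77.9 and 68.7 CPM in PB3-ERI-R, 79.1 and 69.1 CPM in PB3-PAC-R and 79.9 and 69.8 CPM in PB3-VIN-R, so every line overlapped every other. Its start region, chosen after its values were seen, went from 49.5 and 46.2 CPM in PB3-Parental to 67.3 and 54.4 CPM in PB3-ERI-R and was called higher (0.35 ± 0.15, adjusted p = 0.0434). At Kif20a, which brings Aurora B to the midzone, the lines also overlapped, between 28.7 and 40.7 CPM. Kif22, which pushes chromosome arms outward, ran from 17.5 to 23.6 CPM, with PB3-ERI-R inside the PB3-Parental range and both PB3-VIN-R libraries below those of PB3-ERI-R and PB3-PAC-R. Kif18b, which limits astral microtubules, measured 38.4 and 36.6 CPM in PB3-Parental and 50.7 and 41.9 CPM in PB3-ERI-R, with PB3-VIN-R library 1 at 43.3 CPM between these. Its only region, at the start and chosen after its values were seen, was called higher on the region scale (0.60 ± 0.16, adjusted p = 0.00297) and not as a locus (adjusted p = 0.0979).

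**Figure D2:**
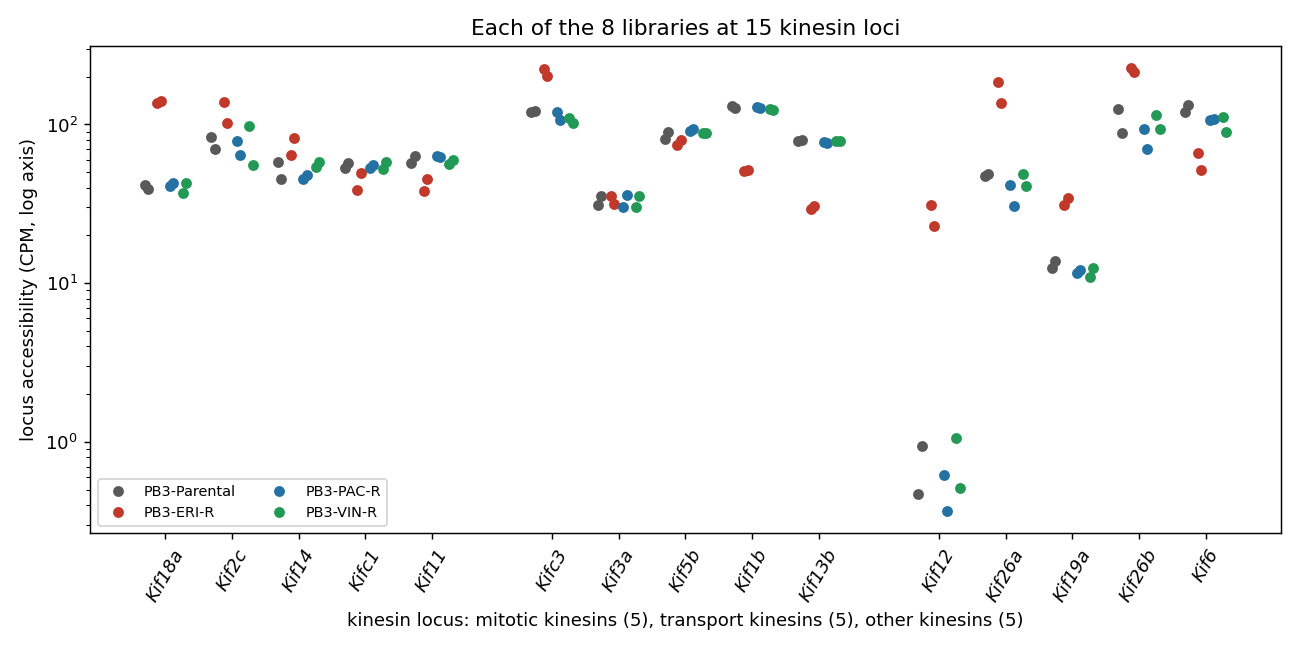
Locus accessibility in each of the 8 libraries (y axis, CPM on a log scale) at 15 kinesin loci (x axis), coloured by line, 1 point a library. At Kif18a, Kif12, Kif26a, Kif19a and Kif26b both PB3-ERI-R points lie above the other 6, at Kif1b, Kif13b, Kif6 and Kif11 below them, and at Kif3a the lines overlap.

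Losses led among the transport kinesins. Kif1b, a carrier of mitochondria and vesicles, measured 130.3 and 127.3 CPM in PB3-Parental and 50.6 and 51.7 CPM in PB3-ERI-R. The other 4 libraries lay between 123.8 and 129.7 CPM, so the PB3-ERI-R pair alone was low (-1.33 ± 0.09, adjusted p = 7.65e-07, with a window median of -0.68). All 6 of its regions fell. The smallest p belonged to chr4:149283091-149283312, 24.5 kb into the gene, with 75 and 59 counts in PB3-Parental and 2 and 3 in PB3-ERI-R (-4.02 ± 0.51, adjusted p = 4.99e-06). Its start region fell by 0.70 (SE 0.13, adjusted p = 0.00022), the only gene-end region of any kinesin that did so, and stood at -0.02 with offsets for the window.

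Kif13b, which carries polarity and membrane proteins, measured 78.3 and 79.8 CPM in PB3-Parental and 29.3 and 30.6 CPM in PB3-ERI-R. The remaining libraries held to 76.8 to 79.1 CPM, and the difference was -1.40 ± 0.09 (adjusted p = 7.67e-07, window median -0.68). No strand was given for Kif13b, so a region at a gene end was taken as its start. That start was not called: 18.1 and 18.6 CPM in PB3-Parental stood beside 21.6 and 20.9 CPM in PB3-ERI-R (0.21 ± 0.20, adjusted p = 0.345). With window offsets that start was called higher (0.89, adjusted p = 0.000842). The other 5 regions all fell, and chr14:64666685-64667013 inside the gene went from 17.0 and 18.0 CPM to 1.76 and 1.44 CPM (-3.44 ± 0.30, adjusted p = 1.2e-07).

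Kif3c, Kif1c, Kif13a and Kif17, which move vesicles in axons, at podosomes, between endosomes and in dendrites, fell as well, with log2 differences of -0.79, -0.72, -0.63 and -0.62. None of Kif3c, Kif1c, Kif13a or Kif13b was called with gene-end regions alone (-0.29, -0.03, -0.04 and -0.16, adjusted p from 0.122 to 0.887). Kif3c and Kif1c repeated the pattern of Kif13b, in regions chosen after their values were seen. Inside Kif3c, chr12:3370960-3372012 went from 31.8 and 38.5 CPM in PB3-Parental to 1.95 and 2.21 CPM in PB3-ERI-R, while its start held (0.08 ± 0.17, adjusted p = 0.675). In Kif1c, chr11:70715885-70716337 went from 14.3 and 14.6 CPM to 0.650 and 0.775 CPM, and its start, shared with Inca1, measured 0.34 ± 0.18 (adjusted p = 0.109). Kif17 fell at the locus although neither of its 2 regions was called alone, and with offsets for its window (median -0.68) its value was 0.06. With the region table's scaling the Kif17 locus was not called either (-0.32, adjusted p = 0.0695).

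**Figure D3:**
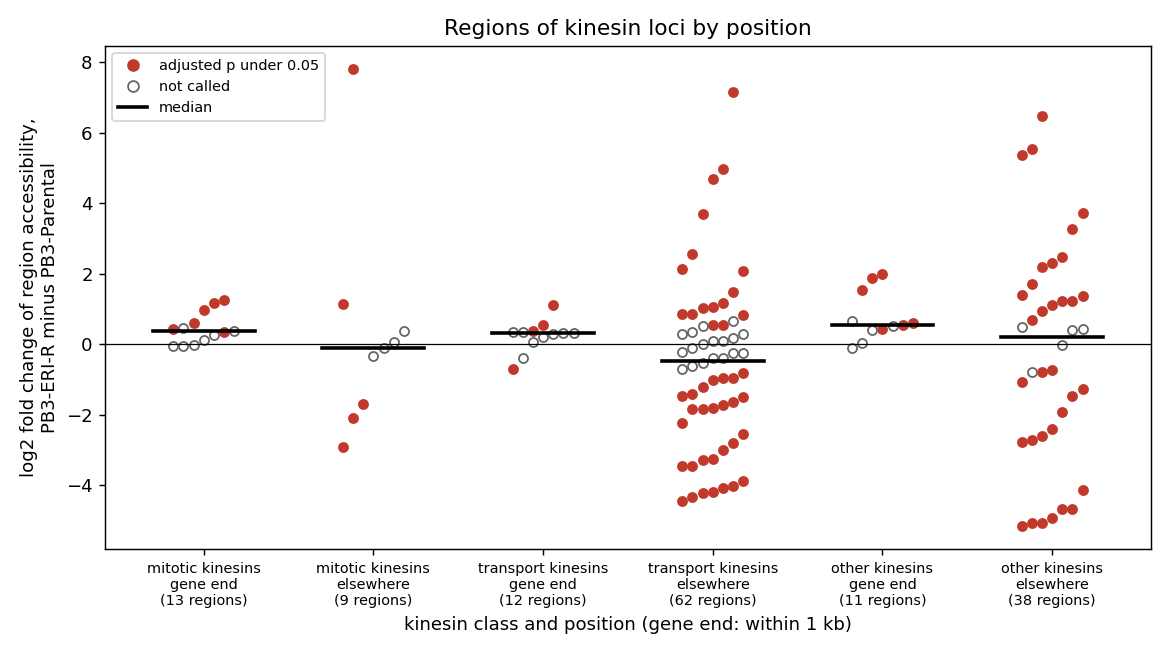
Log2 difference of each kinesin region in PB3-ERI-R against PB3-Parental (y axis), by class and by whether the region lies within 1 kb of a gene end (x axis). Filled points passed an adjusted p of 0.05, open points did not, and bars are medians, which run from 0.32 to 0.55 near gene ends and from -0.46 (transport) to 0.20 (other) elsewhere.

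Kifc3, a minus-end motor linked to adherens junctions of epithelial cells, rose. It measured 120.4 and 121.6 CPM in PB3-Parental and 222.4 and 203.3 CPM in PB3-ERI-R, with PB3-PAC-R and PB3-VIN-R at 102.4 to 119.8 CPM. The 2 PB3-ERI-R libraries were the highest (0.82 ± 0.10, adjusted p = 5.42e-05). Its 10 regions split by side: 6 rose, all inside the gene, and 2 fell, both beyond it. At chr8:95167626-95168111 inside the gene, 0.722 and 1.13 CPM in PB3-Parental became 27.8 and 19.8 CPM (4.68 ± 0.34, adjusted p = 2.18e-08). Its neighbour chr8:95170251-95170483, added after its values were seen, held 1 and 2 counts in PB3-Parental, 178 and 114 in PB3-ERI-R, 5 and 2 in PB3-PAC-R and 3 and 9 in PB3-VIN-R.

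Kif16b, which places early endosomes, rose narrowly (0.28 ± 0.10, adjusted p = 0.0433), and lost the call without any 1 of 5 libraries: either PB3-ERI-R or PB3-PAC-R library or PB3-Parental library 1 (adjusted p from 0.0558 to 0.214). With library totals it was 0.20 (adjusted p = 0.164), with gene-body regions 0.29 (adjusted p = 0.052) and with window offsets -0.04. Kif5b, the widely used heavy chain of conventional kinesin, measured 80.5 and 89.5 CPM in PB3-Parental and 74.2 and 80.2 CPM in PB3-ERI-R, with 87.8 to 94.0 CPM in the rest. That -0.14 ± 0.10 was not called (adjusted p = 0.246), yet 2 of its 7 regions rose and 3 fell. Its start, here a gene end since no strand was given, rose by 0.56 ± 0.21 (adjusted p = 0.0249). A region 44.4 kb away fell by 2.22 on the log2 scale (SE 0.34). The start call was lost without PB3-Parental library 1 (0.38), PB3-ERI-R library 1 (0.58) or PB3-ERI-R library 2 (0.54). It was also lost with library totals alone (0.21, adjusted p = 0.37).

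Kif3a, the shared subunit of the motor that builds cilia, had 1 region, at its start, and was not called. Its 8 libraries ran from 30.1 to 36.1 CPM with all lines overlapping (0.00 ± 0.15 in PB3-ERI-R, adjusted p = 0.993). Kif3b, its ciliary partner, Kif5a, Kif5c and Kifc2 were not called either, between -0.20 and 0.20. Kifc2 was called higher without its shared region (0.62, adjusted p = 0.0251) and with the region table's scaling (0.50, adjusted p = 0.00383). For Kif3b and Kif5c the result depended on which regions were summed, since with gene-body regions alone they fell by 0.63 (adjusted p = 0.0056) and 0.76 (adjusted p = 0.000293). Under the same choice 8 of 14 transport loci fell and 1 rose (median -0.51), 1 of 12 mitotic loci fell and 3 rose (median 0.12), and 2 of 11 other loci fell and 7 rose (median 0.36). Over all 14057 loci 3587 fell and 3712 rose (median 0.03). With gene-end regions alone the medians were -0.04 for transport (12 loci), 0.02 for mitotic, 0.24 for other and 0.00 for all loci.

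The other kinesins held the widest range. Kif12, an epithelial kinesin of kidney and liver, was thinly covered outside PB3-ERI-R: 7 and 13 counts in PB3-Parental, 9 and 5 in PB3-PAC-R and 24 and 12 in PB3-VIN-R, against 375 and 230 in PB3-ERI-R. Those counts are all from its single region, chr4:63186254-63186845, 14.1 kb from the gene. The locus difference was 5.26 ± 0.41 (adjusted p = 1.94e-06), and a peak was called in PB3-ERI-R alone. A gene with 1 region so far off gives no view of its own start.

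Kif26a and Kif26b, atypical kinesins without motor activity that act in cell signalling, both rose. Kif26a measured 47.5 and 49.1 CPM in PB3-Parental and 185.7 and 137.0 CPM in PB3-ERI-R, and 30.8 to 49.0 CPM in the other lines (1.74 ± 0.18, adjusted p = 1.23e-05). The call was lost with gene-end regions alone (0.29, adjusted p = 0.496), a setting that left out its start regions. None of its 6 regions fell and 5 rose, among them the start region chr12:112146143-112146614, from 6.50 and 6.59 CPM to 40.1 and 32.3 CPM (2.47 ± 0.24). The smallest p was at chr12:112186823-112187248, 5.08 kb beyond the gene, with 1.02 and 1.26 CPM in PB3-Parental and 54.1 and 40.3 CPM in PB3-ERI-R (5.36 ± 0.34, adjusted p = 7.81e-09).

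Kif26b measured 125.9 and 88.4 CPM in PB3-Parental and 226.5 and 214.3 CPM in PB3-ERI-R. The other 4 libraries lay between 70.3 and 114.8 CPM, and the difference was 1.04 ± 0.18 (adjusted p = 0.00064). Its start region (chr1:178528304-178529332) went from 21.1 and 17.4 CPM to 73.1 and 68.7 CPM (1.88 ± 0.19, adjusted p = 5.64e-07). Along this long gene, 5 regions up to 86.7 kb from the start rose, the one at 127.0 kb was not called, and those at 230.0 and 408.0 kb fell, by 4.66 and 2.72 on the log2 scale.

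Kif19a, a depolymerase that limits the length of motile cilia, measured 12.5 and 13.9 CPM in PB3-Parental and 31.1 and 34.5 CPM in PB3-ERI-R, with 10.9 to 12.4 CPM in the other lines. The difference of 1.32 ± 0.17 (adjusted p = 7.62e-05) came with a window median of 1.09 and stood at 0.22 (adjusted p = 0.324) with offsets for that window. No strand was given for Kif19a, so a region at a gene end, chr11:114764935-114765499, was taken as its start. That region rose by 1.99 ± 0.32 (adjusted p = 5.49e-05). Kif6, a kinesin of ependymal cilia, fell from 120.2 and 132.6 CPM in PB3-Parental to 66.0 and 52.0 CPM (-1.10 ± 0.14, adjusted p = 6.56e-05), with 90.2 to 111.8 CPM in the other lines. At chr17:49815981-49816579, 201.0 kb into Kif6, 33.3 and 41.1 CPM became 1.21 and 0.996 CPM (-5.06 ± 0.27, adjusted p = 2.53e-09). No region lay at the start of Kif6.

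Kif2a, a depolymerase of spindle poles and growing axons, was placed with the other kinesins, so the mitotic counts leave it out. Its promoter window held no CHR. As a locus Kif2a fell (-0.89 ± 0.12, adjusted p = 0.00012) though its start was called higher on the region scale. These regions too were chosen after their values were seen. The start region went from 29.6 and 33.1 CPM in PB3-Parental to 44.9 and 47.1 CPM in PB3-ERI-R (0.55 ± 0.17, adjusted p = 0.00954), while chr13:107019542-107019801, 2.44 kb into the gene, went from 13.6 and 15.9 CPM to 0.371 and 0.443 CPM. The median of all regions near a gene end was 0.36. With gene-end regions alone, on the locus scale, Kif2a was not called (0.19, adjusted p = 0.225). Kif21a, which slows microtubule growth, held at 0.03 ± 0.12 as a locus with 2 regions up and 6 down. That value turned on the choices made: the locus was called higher with window offsets (1.02, adjusted p = 1.78e-05), gene-end regions (1.18, adjusted p = 0.000221) and gene-body regions (0.38, adjusted p = 0.0417). Its start rose by 1.55 ± 0.21 (adjusted p = 1.12e-05) in a window with a median of -0.99, and 2 regions deep inside fell by 4.93 and 4.66. Without the start region, shared with Gm52215, the locus value was -0.82 (adjusted p = 0.00013).

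Kif27 and Kif24, kinesins of motile cilia and of the centriole, rose by 0.33 ± 0.11 and 0.29 ± 0.10 (adjusted p = 0.0288 and 0.0245), and neither call held without PB3-ERI-R library 2 or without PB3-Parental library 2 (adjusted p from 0.0508 to 0.134). Nor did either hold with library totals (adjusted p = 0.113 and 0.0988) or window offsets (0.22 and 0.02, adjusted p = 0.128 and 0.903), and Kif24 was 0.06 with gene-end regions (adjusted p = 0.681). Kif27 also lost it without library 1 of either line (adjusted p = 0.13 and 0.0713). Kif7, which tunes hedgehog signalling at the cilium tip, Kif9, a flagellar kinesin, and Kif21b, a neuronal relative of Kif21a, were not called (0.31, -0.35 and 0.20). These results too depended on the setting. Kif9 (adjusted p = 0.0512) was called lower with gene-end regions (-0.42, adjusted p = 0.0167) and library totals (-0.43, adjusted p = 0.0402). Kif21b was called higher with gene-body regions (0.51, adjusted p = 0.0075). The region table's scaling called Kif7 and Kif21b higher (0.61 and 0.50, adjusted p = 0.0143 and 0.00182).

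Some loci with small sums held regions that were open in PB3-ERI-R and nearly closed elsewhere, again chosen after their values were seen. In Kif24, chr4:41445492-41445949, 19.1 kb into the gene, held 2 and 2 counts in PB3-Parental, 128 and 106 in PB3-ERI-R, 7 and 7 in PB3-PAC-R and 4 and 8 in PB3-VIN-R. In Kif16b, chr2:142731700-142732154 held 11 and 14 counts in PB3-Parental and 276 and 218 in PB3-ERI-R (4.96 ± 0.34, adjusted p = 1.34e-08), while chr2:142757997-142758654 in the same gene fell from 30.5 and 35.5 CPM to 9.01 and 12.5 CPM. Kif5c, the neuronal heavy chain, gained chr2:49600249-49600720 ahead of the gene (3.69 ± 0.35) and lost chr2:49744228-49744907 inside it (-3.29 ± 0.26), and its locus was not called.

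**Figure D4:**
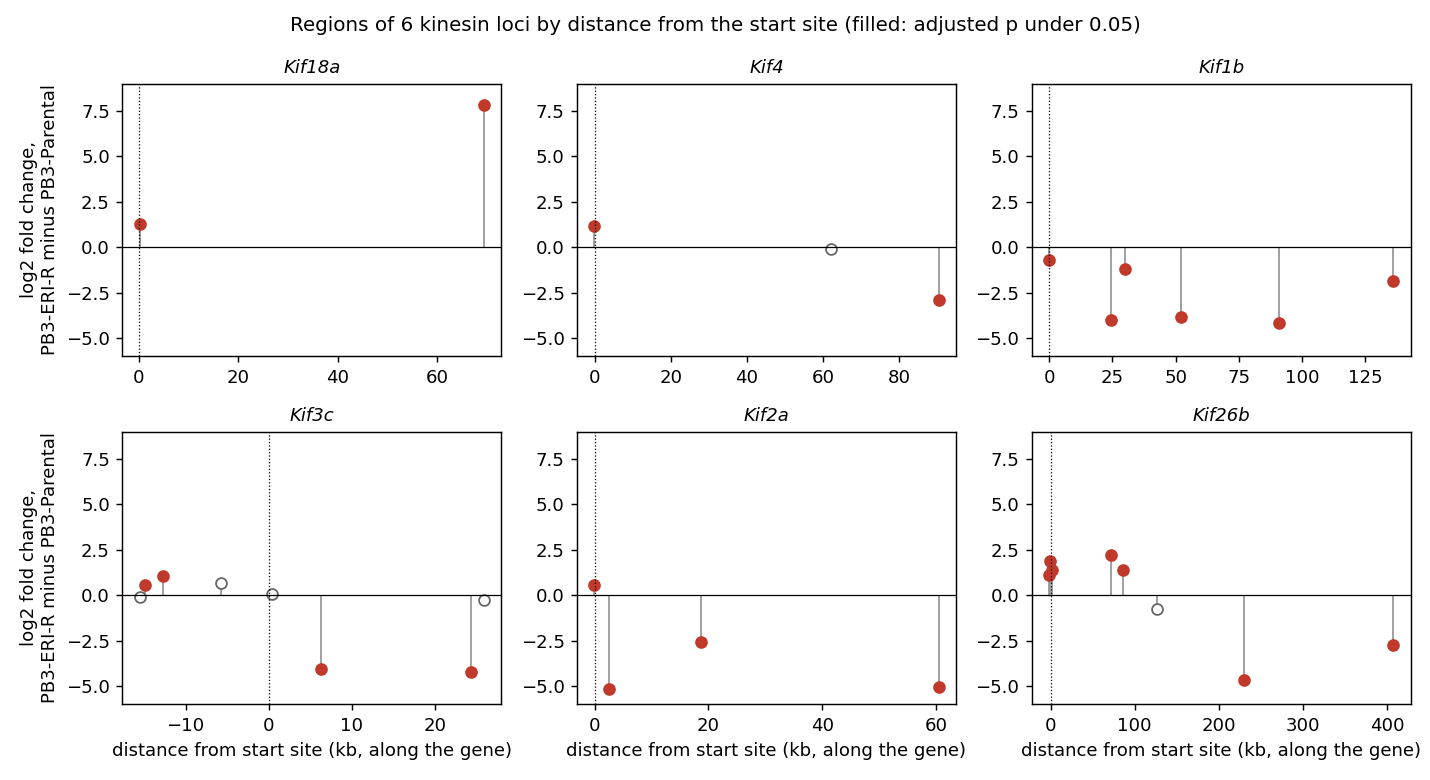
Regions of 6 kinesin loci, with distance from the start site along the gene in kb (x axis) and the log2 difference in PB3-ERI-R against PB3-Parental (y axis). Filled points passed an adjusted p of 0.05. The lowest points inside Kif2a (-5.16), Kif3c (-4.21), Kif1b (-4.19) and Kif26b (-4.66) lie far below the start regions, which run from -0.70 (Kif1b) to 1.88 (Kif26b).

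Over single regions, 98 of 145 kinesin regions (67.6%) differed in PB3-ERI-R, 49 higher and 49 lower, beside 73.0% of all regions (35.4% higher, 37.6% lower). Near gene ends 16 of 36 were called, 15 higher and 1 lower, with a median of 0.38 beside 0.36 for all such regions (54.7% called, 43.8% higher and 10.9% lower). That one-sidedness depended on the scaling: with library totals alone it was 7 higher and 5 lower, with a median of 0.03 beside 0.00. Away from gene ends 82 of 109 were called (75.2%, beside 76.3% of all such regions, 33.0% higher and 43.2% lower), 34 higher and 48 lower, median -0.33 beside -0.19. There the transport kinesins had 16 higher and 28 lower of 62, the mitotic 2 and 3 of 9, and the other 16 and 17 of 38. Mitotic kinesins had 13 of 22 regions near a gene end and transport kinesins 12 of 74, so the classes differ in where their regions lie.

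Gained and lost regions within the same gene were common, at 13 of 30 kinesin loci with more than 1 region (43.3%), and as common over all such loci (41.4%). The 13 were Kif14 and Kif4 among mitotic kinesins, Kif16b, Kif3b, Kif3c, Kif5b, Kif5c and Kifc3 among transport kinesins, and Kif21a, Kif21b, Kif26b, Kif2a and Kif6 among the others. At 5 of them (Kif21a, Kif21b, Kif3b, Kif5b and Kif5c) the locus itself was not called. Peak lists, 1 per line and without replicates, held a peak in 109 kinesin regions in the parental line, 107 in PB3-PAC-R, 122 in PB3-VIN-R and 82 in PB3-ERI-R. Those are 75.2%, 73.8%, 84.1% and 56.6% of the 145, beside 64.6%, 67.4%, 78.8% and 52.4% of all regions. PB3-VIN-R had the deepest libraries and PB3-ERI-R the shallowest, and the part of depth in these shares was not tested. Of these regions, 39 were peaks in every line but PB3-ERI-R (26.9%, as in all regions) and 16 in PB3-ERI-R alone (11%, beside 16.9%).

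In PB3-PAC-R and PB3-VIN-R no kinesin locus was called against PB3-Parental in edgeR (0.103% and 0.571% of all loci were) or in DESeq2. At an unadjusted p under 0.05 PB3-PAC-R had 3 loci and PB3-VIN-R had 2, beside 871 and 1053 of all 15580 loci. Locus differences ran from -0.48 to 0.31 in PB3-PAC-R and from -0.37 to 0.41 in PB3-VIN-R. The endpoint values were those of Kif12 and Kif21a in PB3-PAC-R and of Kif7 and Kif21a in PB3-VIN-R. Single regions gave no edgeR call either (0.0853% and 0.678% of all regions). At an unadjusted p under 0.05 there were 12 and 13, beside 3316 and 5667 of all 57415 regions tested. DESeq2 called 2 kinesin regions lower in PB3-VIN-R (0.589% of all regions) and none in PB3-PAC-R.

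Taking PB3-PAC-R first and PB3-VIN-R second, Kif11 measured 0.06 and -0.06, Kif18a 0.05 and -0.02, Kifc1 -0.02 and 0.01, and no mitotic locus passed 0.21 in either direction. No transport locus passed 0.20. Kif1b and Kif13b, so low in PB3-ERI-R, stood at -0.01 and -0.03 in PB3-PAC-R and at -0.05 and 0.00 in PB3-VIN-R. Between the 2 lines, PB3-VIN-R minus PB3-PAC-R, no kinesin locus or region was called (0.0385% of all loci, 0.00871% of all regions). At an unadjusted p under 0.05 there were 1 locus and 5 regions, beside 651 of all 15580 loci and 2491 of all 57415 regions. DESeq2 called none of these either.

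Set directly against PB3-PAC-R, PB3-ERI-R had 10 kinesin loci higher and 10 lower (52.6%, beside 58.7% of all loci, 28.6% higher and 30.1% lower). Against PB3-VIN-R it had 10 higher and 12 lower (57.9%, beside 57.2% of all loci, 27.4% higher and 29.8% lower). These comparisons share the PB3-ERI-R libraries with the parental one and are no separate support for it. Kif18a differed by 1.72 and 1.79, Kif1b by -1.33 and -1.28, Kif13b by -1.37 and -1.40, Kif26a by 2.15 and 1.85, and Kif11 by -0.59 and -0.47. Kifc3 was higher by 0.91 and 1.00, and Kif12 by 5.75 and 5.09. Kif5b, not called against PB3-Parental, was lower against PB3-PAC-R (-0.26, adjusted p = 0.0382) and was not called against PB3-VIN-R (-0.19, adjusted p = 0.108).

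Per kb of region, the most accessible kinesin loci in PB3-Parental were Kifc1 (97.1 CPM per kb), Kifc2 (75.6) and Kif20a (64.4). The least accessible were Kif12 (1.19), Kif19a (15) and Kif26a (22.4). In PB3-ERI-R, Kifc2 (87.1), Kif18a (83.5) and Kifc1 (77.8) led, and Kif13b (12.2) and Kif6 (15.7) were the lowest. Kif18a moved from 24.5 to 83.5 CPM per kb, and Kif12 from 1.19 to 45.6 CPM per kb.

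Genes that work with kinesins were counted in the same fit, where 56.6% of all loci were called in PB3-ERI-R, 27.0% higher and 29.6% lower. Of 14 spindle partner loci 4 rose and 2 fell in PB3-ERI-R (42.9% called, median 0.16). Tacc3, which stabilizes spindle microtubules, rose from 101.3 and 100.8 CPM to 264.1 and 257.2 CPM (1.37 ± 0.09, adjusted p = 6.15e-07) in a window with a median of 1.61, and Incenp, the scaffold of the chromosomal passenger complex, fell (-0.61 ± 0.13, adjusted p = 0.00179). Of 14 transport partner loci 3 rose and 4 fell (7 of 14 called, median -0.08). Kifap3, which joins the Kif3a motor to its cargo, rose from 41.9 and 36.1 CPM to 67.9 and 68.9 CPM (0.81 ± 0.12, adjusted p = 0.000149), while Kif3a itself was not called, and the dynein adaptor Bicd1 fell (-1.16 ± 0.11, adjusted p = 1.02e-05). Of 19 dynein and dynactin loci, the opposite-direction motor, 2 rose and 5 fell (36.8% called, median -0.05), led by Dync1i1 (-1.25 ± 0.19, adjusted p = 0.000272) and Dync1li2 (-0.68 ± 0.11, adjusted p = 0.000418). None of the 3 lists had a called locus in PB3-PAC-R or PB3-VIN-R in edgeR, with 1 and 2 loci at an unadjusted p under 0.05. Over all 15580 loci that p held for 871 and 1053.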

How the data were processed

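ATAC-seq of 4 lines with 2 libraries each was analysed from 57417 consensus regions (mm10, GRCm38). The authors deposited raw counts per region and library and 1 peak list per line. The deposited peak lists also carry a peak score, a fold enrichment, and −log10 p and q values. Per the submitters' processing notes, reads were handled with tools that include Bowtie2 2.2.6 and cutadapt 1.9.1, with MACS2 2.1.1 and featureCounts also listed. Whether cut sites were shifted is not given in the sources used here.

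A region counted for the nearest protein-coding gene body (RefSeq GRCm38.p6), inside or within 50 kb, and for each gene where several were equally near (11 kinesin regions). Counts per region and per locus were fitted with edgeR 4.0.16 (R 4.3.3): quasi-likelihood test, filterByExpr, TMM, all 8 libraries, 1 term per line, Benjamini-Hochberg adjustment over all features, called at an adjusted p under 0.05. SE is the log2 difference divided by the root of F. The scripts were tested on simulated data. Depth was 10521964 to 24052237 counts, and 3 counts equal 0.125 to 0.285 CPM. Libraries of a line differed by more than sampling noise (chi-square per degree of freedom 4.80 to 10.3).

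Genes named with values were those called with a log2 difference of at least 1 in PB3-ERI-R, the 3 smallest adjusted p of each class, and Kif11, Kif2c, Kif18a, Kifc1, Kif14, Kif5b, Kif3a and Kif1b. Their regions were the one of smallest p and the one at the start, or at a gene end where no strand was given (Kif13b, Kif5b and Kif19a). Of each partner list the 2 smallest p were named. Members and lists were chosen with earlier results of these data known. Alternatives were DESeq2 1.42.0 and its size factors, library totals, no filter, a replicate block, window offsets, other region assignments, stricter peak rules and leaving out each library.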

Additional observations from a re-analysis of the deposited data

How the results depend on the processing

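Of the counts, 497 values under the alternatives stayed within 1.5 times the reported one and 39 did not. Kinesin loci that rose in PB3-ERI-R against PB3-Parental numbered 12, but 6 with window offsets, 7 with gene-end regions alone and 7 to 12 with a library left out; those that fell numbered 5 with gene-end regions. Mitotic loci that rose numbered 1 with offsets and 1 to 4 with a library left out. Those that fell, 1 as reported, numbered 2 with library totals, with gene-end regions, with each region in 1 locus and without shared regions, 0 with the region table's scaling, and 1 to 2 with a library left out. Transport loci that rose numbered 1 with library totals, offsets, gene-end regions or gene-body regions, and 1 to 2 with a library left out. With gene-end regions 2 transport loci fell, and 3 other loci rose and 1 fell. Against PB3-PAC-R, 6 loci were lower with gene-end regions and 16 higher with the region table's scaling. Against PB3-VIN-R, 6 were lower with gene-end regions, and 18 higher and 7 lower with that scaling. In PB3-VIN-R, DESeq2 called 2 regions lower, and leaving out a library gave 0 to 1 regions in either direction.

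Directions turned with window offsets at Kif4 (-0.56), Kif11 (0.20), Kif16b (-0.04), Kif17 (0.06) and the Kif11 start region (0.68, adjusted p = 0.00444 in edgeR). They turned with other region choices at Kif4 (-1.03 with each region in 1 locus, -1.01 without shared regions), Kif21a (-0.82 without shared regions), Kif3b (-0.63 with gene-body regions) and Kif2a (0.19 with gene-end regions, not called, adjusted p = 0.225 in edgeR). Fewer regions entered each locus in those choices; the cause of the others was not tested.

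Deviations of same-numbered libraries correlated at 0.0729 (PB3-Parental with PB3-ERI-R) to 0.446 over 6 pairs of lines, and 5 of the 6 were over 0.1. No label ties a number to a shared batch, so the block is only an alternative. With the replicate number as a block, 13 kinesin loci rose and 13 fell in PB3-ERI-R, 3 of the latter mitotic. The loci gained were Kif18b (0.30, adjusted p = 0.0258), Kifc1 (-0.33, adjusted p = 0.00872), Kif20b (-0.33, adjusted p = 0.0303), Kif5c (-0.20, adjusted p = 0.0307) and Kif9 (-0.35, adjusted p = 0.00459, all in edgeR). Under the block 1 locus rose in PB3-VIN-R, 1 region fell in PB3-PAC-R, and 3 regions rose and 5 fell in PB3-VIN-R. Requiring a −log10 q of at least 10 left the number of kinesin regions with a peak unchanged for each line. With at least 50% of a region covered, 109 became 105 for PB3-Parental and 82 became 75 for PB3-ERI-R. Under that rule 107 became 105 for PB3-PAC-R, while PB3-VIN-R kept its 122. With 1 peak list a line, the spread of these numbers was not measured. Over all regions the shares fell to 63.3%, 50.1%, 65.6% and 78.3% (PB3-Parental, PB3-ERI-R, PB3-PAC-R, PB3-VIN-R) where at least 50% of a region had to be covered. The alternatives added after seeing the data were the 2 treatments of shared regions and the region table's scaling. With 2 libraries a line, small differences in PB3-PAC-R and PB3-VIN-R may not be detectable.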
